A study of Rattus norvegicus with 8 samples.

Results

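The steroid hormone receptor genes, 5 of the 30560 genes in the deposited matrix, were followed across the cells of the rat nodose ganglion. They were taken by symbol: the estrogen receptors Esr1 (ENSRNOG00000019358) and Esr2 (ENSRNOG00000005343), the progesterone receptor Pgr (ENSRNOG00000006831), the glucocorticoid receptor Nr3c1 (ENSRNOG00000014096) and the mineralocorticoid receptor Nr3c2 (ENSRNOG00000034007). Each symbol matched 1 row of the matrix. The ganglia came from experimentally naive Long Evans rats 8 weeks old, 18 male and 18 female, and were profiled by sequencing the RNA of single nuclei. Left and right ganglia were kept apart, and each of 12 pools held the ganglia of 1 side from 6 rats, giving 3 pools for each combination of labelled sex and side. Pools are named M or F for the labelled sex, L or R for the side, and a number. With 18 rats per sex, left and right pools drew on the same animals, so the 6 left and 6 right pools are not independent sets of rats. The 8 deposited samples are sublibraries that each mix nuclei of all 12 pools, and they measure technical spread only.

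Steroid receptors of this family are transcription factors that a hormone switches on. Without hormone, the glucocorticoid, mineralocorticoid and progesterone receptors are held by chaperones of the Hsp90 family, and with hormone they bind DNA and recruit coactivators or corepressors. Estradiol binds both estrogen receptors, progesterone binds Pgr, and corticosterone, the main glucocorticoid of the rat, binds Nr3c1 and, with higher affinity, Nr3c2. The nodose ganglion holds the cell bodies of vagal sensory neurons, which report on the heart, lungs and gut, and estrogen and glucocorticoid signals are known to act on such neurons.

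The matrix held 36741 nuclei and 139965360 UMIs, that is, distinct transcript molecules counted by their barcodes, and 36738 nuclei were kept. Pools ranged from 1738 to 4849 nuclei and from 7139364 to 19456287 UMIs, with pool medians of 2163 to 3626.5 UMIs per nucleus. Of the kept nuclei, 24754 were neuron-like, 2909 satellite glia-like, 2417 myelinating Schwann cell-like and 1033 vascular, the last a mixture of mural and endothelial nuclei, and 5163 stayed unnamed. A pair of left pools went against their sex label. Summed over the Y-linked genes Kdm5d, Eif2s3y and Ddx3y, the male-labelled pool ML1 stood at 2.81 CPM (on the counts-per-million scale, which sets the UMIs of a gene against all UMIs of the pool or class) and the female-labelled pool FL1 at 88.6, while the other male-labelled pools ranged from 84.0 to 91.0 and the other female-labelled pools from 2.52 to 3.64. Sex is therefore given as labelled, and the side, sex and interaction results of neurons and nodose-like neurons are also given without both pools. Jugular-like neurons, which belong to the ganglion fused to the nodose, were 1.44% (ML3) to 20.7% (ML1) of the neurons of a pool, and 417 of the 612 nuclei of a muscle-like cluster came from FR2. Of the barcode combinations, 1865 occurred in more than 1 sublibrary, and nuclei were told apart by sublibrary.

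The estrogen receptors Esr1 and Esr2 differed in the cell class with their highest level in CPM. Among the classes with enough nuclei for a test, this was the neurons for Esr1 and myelinating Schwann cells for Esr2. Neurons, the most numerous class, held 82.8% of all Esr1 UMIs and 52.4% of all Esr2 UMIs. The stretch just before each gene's start is shown for these genes because they answer to the same hormone. Each is 250 bases from RefSeq on the build GRCr8, read 5′ to 3′ on the gene's own strand, with CG pairs in capitals. The Esr1 stretch lies at chr1:43641845-43642094 on the plus strand and the Esr2 stretch at chr6:100644710-100644959 on the minus strand.
Esr1: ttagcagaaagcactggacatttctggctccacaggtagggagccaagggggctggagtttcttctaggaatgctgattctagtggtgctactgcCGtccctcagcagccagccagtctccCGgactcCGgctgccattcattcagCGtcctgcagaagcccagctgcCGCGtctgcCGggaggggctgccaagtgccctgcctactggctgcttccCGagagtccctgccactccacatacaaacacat
Esr2: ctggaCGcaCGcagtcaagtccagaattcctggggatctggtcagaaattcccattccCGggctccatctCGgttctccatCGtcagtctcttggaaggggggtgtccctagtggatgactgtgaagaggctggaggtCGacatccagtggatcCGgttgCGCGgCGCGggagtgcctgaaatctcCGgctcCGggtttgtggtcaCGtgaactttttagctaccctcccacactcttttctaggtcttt
The Esr1 stretch was 59.6% G or C with 8 CG pairs, and the Esr2 stretch 56.4% with 14. Over 33469 such rat stretches the medians were 51.2% and 5 CG pairs. Neither stretch held any of 4 motifs that were searched for on both strands, none of which contains another. The estrogen response half-site, AGGTCA, occurs in 14.1% of all stretches. The glucocorticoid response half-site, with the letters TGTTCT, occurs in 17.5%. A GC box, searched as GGGCGG, occurs in 30.5% of the stretches, and a TATA box, searched as TATAAA, in 12.9% of them. The Pgr stretch held 1 GC box and 1 TATA box, and the entries for Nr3c1 held 1 and 3 GC boxes. Entries were found for 4 of the 5 receptors.

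Esr1, which encodes estrogen receptor alpha, was highest in neurons. Of 5700 Esr1 UMIs, 82.8% lay in neurons, which held 95461845 of the 139954192 UMIs of all kept nuclei. The level of Esr1 in neurons was 49.4 ± 6.40 CPM (mean and SD over 12 pools). It was 57.9 ± 7.32 CPM in nodose-like neurons and 16.4 ± 6.03 in jugular-like neurons. Satellite glia stood at 23.5 ± 9.10 CPM, myelinating Schwann cells at 8.15 ± 5.62 and vascular nuclei at 18.4 ± 14.2, with no overlap between the neurons' pool values (39.2 to 59.7) and those of Schwann cells (0 to 17.8). Against neurons, in edgeR's quasi-likelihood test with pools as blocks, Esr1 was lower by a log2 change of -1.26 ± 0.11 (SE) in satellite glia, -2.77 ± 0.19 in Schwann cells and -1.75 ± 0.21 in vascular nuclei, with adjusted p of 2.32e-16, 3.94e-21 and 2.79e-11. Most genes separate these classes: 72.6% of the 8618 genes tested were called in satellite glia, 79.0% in Schwann cells and 70.4% in vascular nuclei.

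Markers of neurons were also detected in the other classes. Summed over 12 neuron markers, satellite glia held 77.8% of the neurons' level, Schwann cells 36.8% and vascular nuclei 38.8%. Esr1 in the same classes was at 47.8%, 15.8% and 34.6% of its neuronal level, below the marker share in satellite glia and Schwann cells and close to it in vascular nuclei. The part of neuronal RNA in these Esr1 values was not tested. An Esr1 UMI was found in 12.9% of neurons (95% exact interval 12.4 to 13.3; median depth 2964 UMIs) and in 1.61% of Schwann cells (1.15 to 2.20; median depth 1510). Thinned shares, here and below, keep only the nuclei with at least 1500 UMIs and cut each of them to 1500. They cover 9082 of 10607 neurons from left pools and 11360 of 14147 from right pools. The thinned Esr1 shares were 6.41% (6.08 to 6.76) in neurons and 1.39% (0.813 to 2.22) in Schwann cells. These intervals cover counting error only.

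Esr2, which encodes estrogen receptor beta, was highest in myelinating Schwann cells, at 35.5 ± 9.45 CPM over the 12 pools (17.8 to 50.1). Neurons stood at 5.16 ± 0.907 CPM (2.99 to 6.35), satellite glia at 6.64 ± 3.802 and vascular nuclei at 6.79 ± 5.16. All 12 Schwann pool values lay above all 12 neuron values. Esr2 was too low for the count filter in this comparison. Without the filter, where 44.0% of 23209 genes were called, the Schwann cell level of Esr2 was higher than the neuronal one by a log2 change of 2.43 ± 0.16 (edgeR, adjusted p 6.92e-42). The same fit gave -0.16 in satellite glia (adjusted p 0.612, 40.5% of genes called) and 0.18 in vascular nuclei (adjusted p 0.788, 38.4% called). Thinned to 1500 UMIs, 5.00% of Schwann cells (3.84 to 6.37) and 0.866% of neurons (0.743 to 1.00) held an Esr2 UMI. Of all 934 Esr2 UMIs, 52.4% were in neurons, the most numerous class, and myelin markers stood in neurons at 3.501% of their Schwann cell level.

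Pgr, the progesterone receptor, was scarce, with 373 UMIs in all. Among the classes with enough nuclei for a test, it was highest in satellite glia, the glia that wrap neuron cell bodies. Satellite glia stood at 10.1 ± 5.24 CPM (1.92 to 21.7), against 1.46 ± 0.644 in neurons (0.397 to 2.40), 1.13 ± 1.62 in Schwann cells and 1.90 ± 5.76 in vascular nuclei. The lowest satellite pool, ML2 with 1 Pgr UMI, overlapped the neurons, and the others did not. Without the count filter, the satellite level of Pgr was higher than the neuronal level by a log2 change of 2.28 ± 0.23 (edgeR, adjusted p 1.70e-20), while Schwann cells (-0.40, adjusted p 0.619) and vascular nuclei (-0.70, adjusted p 0.562) did not pass. A Pgr UMI was in 1.41% (0.930 to 2.04) of satellite glia and 0.176% (0.123 to 0.244) of neurons after thinning. Satellite glia markers stood in neurons at 5.41% of their own level. A class of sympathetic neuron or chromaffin-type nuclei had too few nuclei in some pools for a test. In its pools with at least 20 nuclei, Pgr ran from 0 to 14.6 CPM, which overlapped the satellite glia.

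Nr3c1, the glucocorticoid receptor, was present in every class and higher outside the neurons. It stood at 81.8 ± 5.88 CPM in neurons (71.2 to 88.8), 186 ± 26.5 in satellite glia (150 to 232), 347 ± 60.7 in Schwann cells (313 to 508) and 323 ± 46.3 in vascular nuclei (220 to 395). No pool value of a non-neuronal class fell within the neuronal range. Against neurons, Nr3c1 was higher by log2 changes of 0.99 ± 0.06, 1.89 ± 0.06 and 1.76 ± 0.08 (edgeR, adjusted p 3.74e-24, 3.97e-39 and 2.69e-32). Schwann cells and vascular nuclei lay within 1 SD of each other. After thinning, 11.5% of neurons and 39.9% of Schwann cells held an Nr3c1 UMI.

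Nr3c2, the mineralocorticoid receptor, was highest in vascular nuclei among the classes with enough nuclei for a test, at 461 ± 77.0 CPM (366 to 646). Satellite glia stood at 175 ± 17.4 CPM, Schwann cells at 155 ± 32.1 and neurons at 137 ± 9.37 (112 to 151). The vascular pools did not overlap the neurons, and Nr3c2 there was higher by a log2 change of 1.497 ± 0.07 (edgeR, adjusted p 2.77e-31). The satellite glia difference was 0.15 (adjusted p 0.0226) and every satellite pool (154 to 211) lay above every neuron pool. The Schwann cell difference was 0.07 (adjusted p 0.366) and changed sign to -0.09 without the count filter. The 61 fibroblast-like nuclei, at most 13 in a pool, were too few for a test. Pooled, their 58 Nr3c2 UMIs gave a higher level than that of vascular nuclei, 586 CPM (95% exact Poisson interval 445 to 758). Their 63 Nr3c1 UMIs gave 637 CPM (489 to 815), above the Schwann cell and vascular levels of Nr3c1. Their 4 Esr2 UMIs gave 40.4 CPM (11.02 to 104), an interval that holds the Schwann cell level. These intervals cover counting error only.

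**Figure D1:**
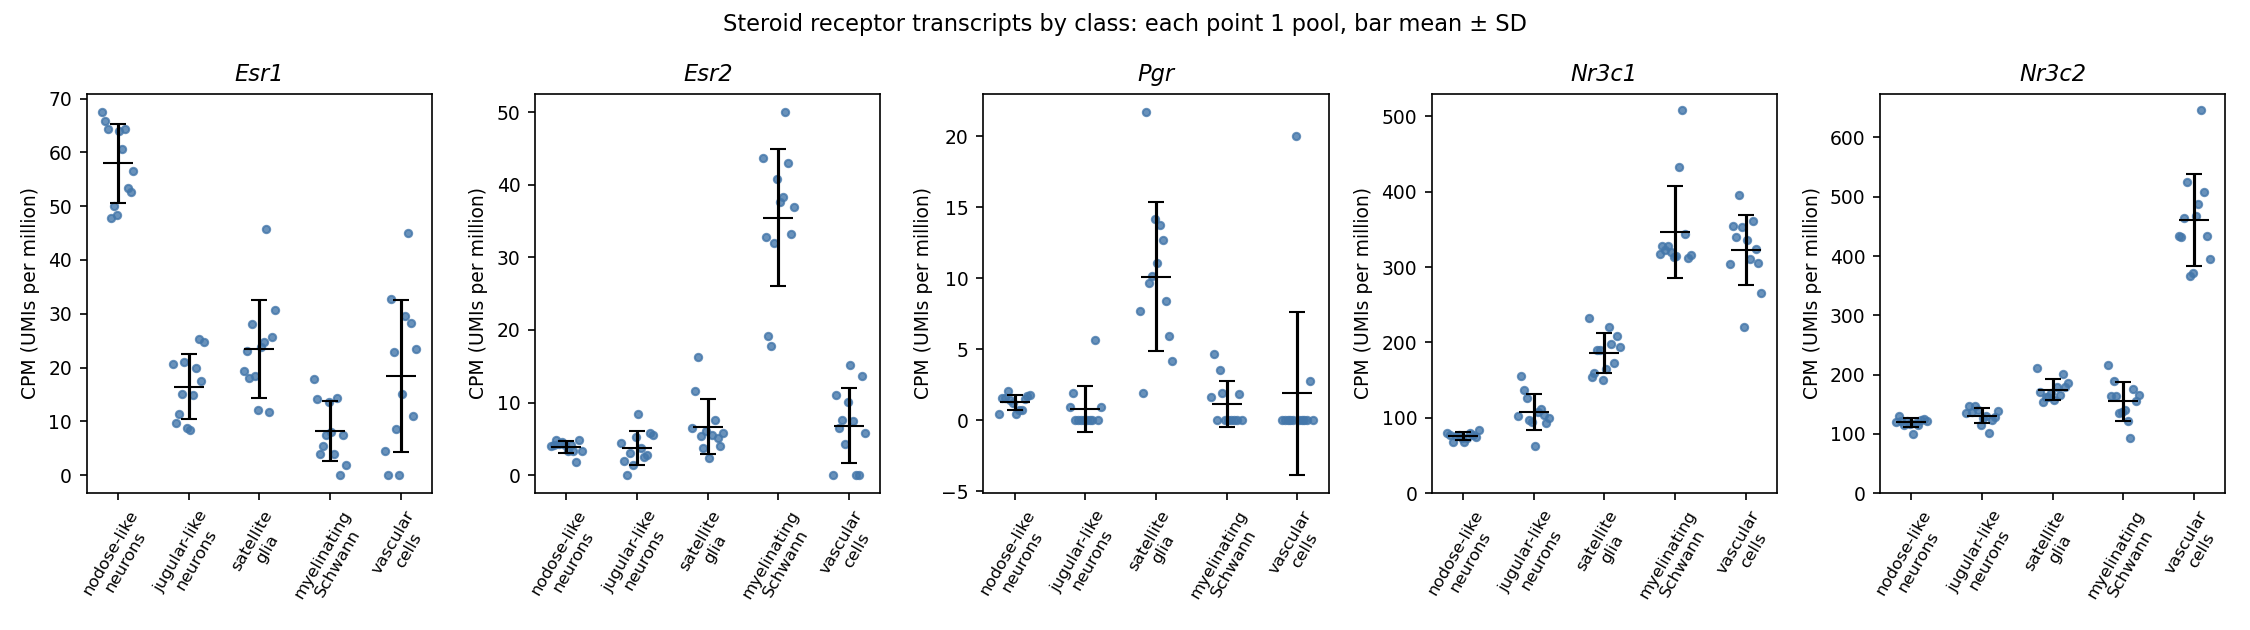
Transcript level of each receptor (y axes, CPM) in 5 cell groups (x axes: nodose-like neurons, jugular-like neurons, satellite glia, myelinating Schwann cells and vascular nuclei); each point is 1 pool and the bars are the mean and SD. Esr1 is highest in nodose-like neurons (57.9 CPM), Esr2 in Schwann cells (35.5), Pgr in satellite glia (10.1), Nr3c1 in Schwann cells and vascular nuclei (347 and 323) and Nr3c2 in vascular nuclei (461).

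Within the neurons, nodose-like and jugular-like nuclei differed in Esr1 and Nr3c1. Esr1 in jugular-like neurons was lower by a log2 change of -1.67 ± 0.12 (edgeR with pools as blocks, adjusted p 1.33e-15). Nr3c1 was higher there, at 108 ± 23.5 against 75.8 ± 4.83 CPM (0.49 ± 0.07, adjusted p 3.27e-07), and Nr3c2 was slightly higher, at 131 ± 13.3 against 119 ± 7.42 CPM (0.17 ± 0.06, adjusted p 0.0222). Esr2 was at 3.74 ± 2.30 and 3.89 ± 0.840 CPM (0.06 ± 0.29, adjusted p 0.899). Of the 11506 genes tested, 37.0% were called. Neuron markers summed to 97.6% of the all-neuron level in jugular-like neurons. The pool ML3 held only 20 jugular-like nuclei.

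The neurons fell into 22 subclusters, made without the receptors and their pathway genes. Levels are given for the 21 that had at least 20 nuclei in 1 pool or more, over such pools. Esr1 was the receptor that varied most among them. Subclusters are named here by their leading genes. Esr1 was highest in the Tafa4/Crhr2 subcluster of 2387 nodose-like nuclei, at 220 ± 35.4 CPM over 12 pools (175 to 277), and was itself among that subcluster's leading genes. Crhr2 encodes a receptor for the urocortins. The subcluster held 7.64% of neuronal UMIs and 33.1% of neuronal Esr1 UMIs, and its lowest pool lay above the highest pool of the next subcluster. Itm2a/S1pr3 neurons followed at 109 ± 21.8 CPM (84.1 to 154), then Trpm8/Cdh8 neurons, a jugular-like group whose first gene is the cold sensor, at 101 ± 32.8 in 3 pools. Those neighbours overlapped within 1 SD. Xylt1/Sctr neurons, which also carry Cckar, the cholecystokinin receptor of gut-sensing vagal neurons, stood at 62.9 ± 12.2 CPM. Itgae/Gpr65 neurons stood at 54.7 ± 21.3, Pde1a/Fhip1a at 52.2 ± 11.97, Gdpd4/Shisa6 at 36.7 ± 11.2 and Cysltr2/Cyp26b1 at 29.9 ± 9.29, each overlapping its neighbour. The lowest was Tafa1/Ccdc172 at 1.51 ± 2.04 CPM in 7 pools. The highest level of Esr1 was 15.4 times the median of the subclusters.

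After thinning to 1500 UMIs, 25.9% (24.0 to 27.9) of Tafa4/Crhr2 nuclei and 13.8% (12.04 to 15.6) of Itm2a/S1pr3 nuclei held an Esr1 UMI, against 0.423% (0.0512 to 1.52) in Tafa1/Ccdc172. At full depth the first 2 shares were 39.9% and 40.8%, at median depths of 2703 and 6197.5 UMIs. In these 3 subclusters the order by CPM is that of the thinned shares.

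Esr2 and Pgr were low in most neurons. Esr2 was highest in Nxph1/Rnf220 neurons, at 32.0 ± 12.6 CPM (20.6 to 69.8), followed by Agtr1a/Hmcn1 neurons at 18.8 ± 9.82 and Pcdh15 neurons at 11.6 ± 6.83, and these neighbours overlapped within 1 SD. Nxph1/Rnf220 neurons held 3.804% of neuronal UMIs and 23.1% of neuronal Esr2 UMIs. Their Esr2 level lay within 1 SD of that of myelinating Schwann cells. Agtr1a encodes an angiotensin receptor. Pgr was highest in Pcdh15 neurons at 8.99 ± 6.68 CPM, with Xylt1/Sctr neurons at 7.61 ± 7.25 and Pappa2/Csmd3 neurons at 5.15 ± 5.07, and the 3 overlapped. Pgr had 0 UMIs in 1518 Itm2a/S1pr3 nuclei, which allows a share of nuclei with a UMI of up to 0.243%. These levels rest on 113 Esr2 UMIs in Nxph1/Rnf220 neurons and 30 Pgr UMIs in Pcdh15 neurons.

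Nr3c1 was the most even of the receptors across neurons, with its highest level 1.53 times the median. It ranged from 50.6 ± 8.46 CPM in Cysltr2/Cyp26b1 neurons to 127 ± 23.1 in Nxph1/Rnf220 neurons, and the highest neighbours overlapped within 1 SD. Of the 21 subclusters, Nr3c2 was highest in Pcdh15 neurons, at 376 ± 46.5 CPM (259 to 428). Tafa1/Ccdc172 neurons followed at 268 ± 35.2 in 7 pools (228 to 337), more than 1 SD away but overlapping in range, Htr4/Hs6st2 neurons at 259 ± 18.4 in 5 pools and Nxph1/Rnf220 neurons at 243 ± 23.8, and these overlapped one another. The remaining subcluster, 57 jugular-like nuclei led by Il31ra, an interleukin receptor, held 64 Nr3c2 UMIs, a pooled 446 CPM (exact Poisson 343 to 569). Spp1/Kcna1 neurons were lowest, at 73.6 ± 28.6 CPM in 6 pools. Thinned to 1500 UMIs, 41.2% (37.4 to 45.2) of Pcdh15 neurons and 11.8% (10.4 to 13.4) of Cysltr2/Cyp26b1 neurons held an Nr3c2 UMI.

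**Figure D2:**
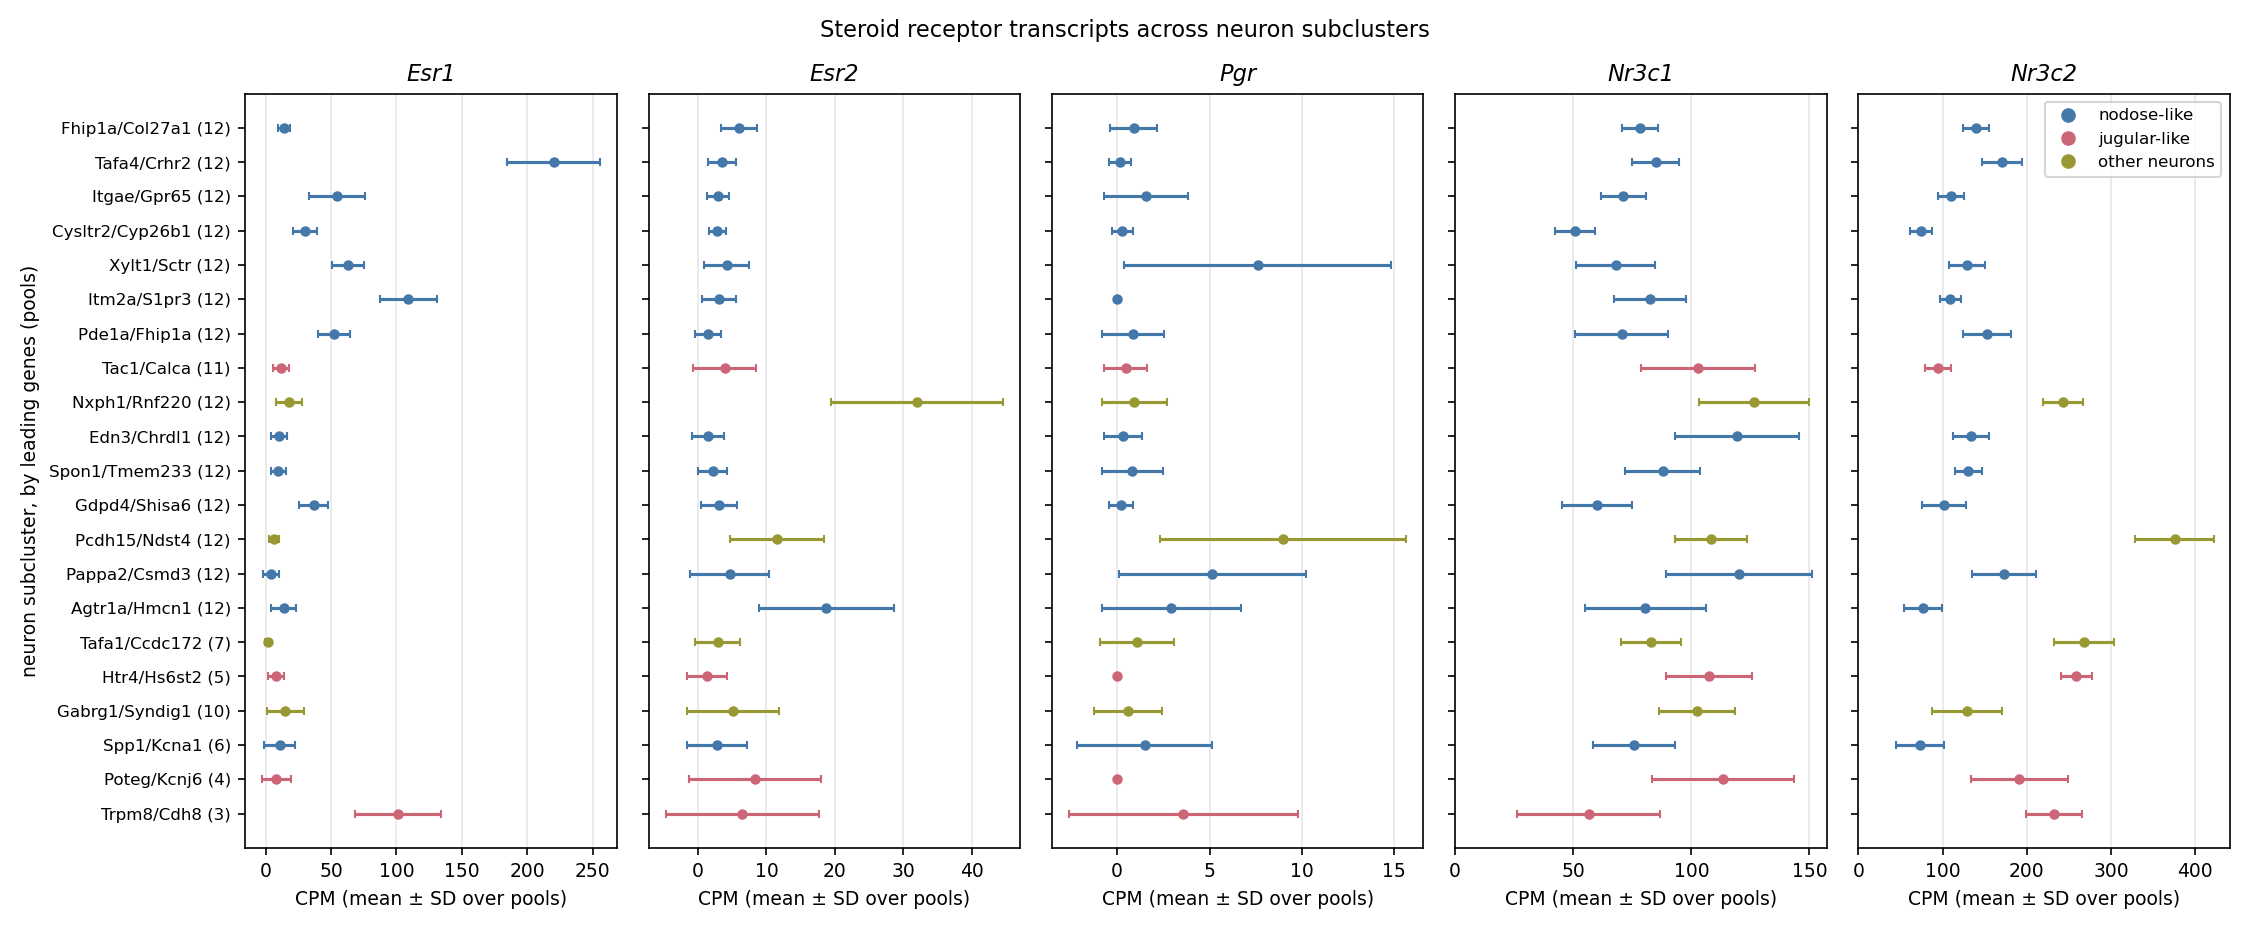
Level of each receptor (x axes, CPM, mean and SD over pools) in each neuron subcluster (y axis, named by leading genes, with the number of pools holding at least 20 nuclei); colours give nodose-like, jugular-like and other neurons. Esr1 is highest in Tafa4/Crhr2 neurons (220 CPM), Nr3c2 in Pcdh15 neurons (376 CPM), and Nr3c1 spans 50.6 to 127 CPM.

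The genes whose levels ran most like each receptor's were found by Pearson correlation of log2(CPM + 1) over all 22 subclusters. They were sought among 11376 genes that reached 10 CPM in at least 1 subcluster. The points share nuclei and depth, and the values are a description. They include the 57 nuclei led by Il31ra, where 2 UMIs make 13.9 CPM. Cabcoco1 (13.9 CPM), Evc (20.9), Scp2 (97.5) and Ednra (118) were highest there, so the highest levels of Cabcoco1 and Evc rest on few UMIs. For Esr1 the nearest genes were Pclo (0.85), a protein of the presynaptic active zone, Ednra (0.82), an endothelin receptor, and Tmem45al (0.80). For Esr2 they were Cabcoco1 (0.80), Plekha7 (0.80) and Rxra (0.76), a retinoid X receptor. Laptm4b (0.79), Ankrd34c (0.74) and Lrp12 (0.72) were nearest to Pgr, and Tcerg1l (0.78), Crebrf (0.75) and Arhgef7 (0.75) to Nr3c1. Evc (0.84), Bckdhb (0.82) and Scp2 (0.82) were nearest to Nr3c2. Between the receptors, r ran from -0.44 for Esr1 with Nr3c1 to 0.56 for Nr3c1 with Nr3c2.

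No receptor was called between left and right over all neurons. Of 13899 genes tested, 18, or 0.13%, were called by edgeR with labelled sex in the model, and 0 of the 5 receptors. Without both ML1 and FL1, 2 of 13980 genes were called (0.0143%) and no receptor. At an unadjusted p under 0.05 there were 2 receptors, Esr1 and Pgr, and 1010 of the 13899 genes (7.27%). DESeq2 called 1 receptor, Esr1, with 0.54% of genes called. In left pools Esr1 was 49.8 CPM in ML1, 52.7 in ML2, 59.7 in ML3, 58.5 in FL1, 48.7 in FL2 and 55.9 in FL3. In right pools it was 42.2 CPM in MR1, 42.6 in MR2, 39.2 in MR3, 48.1 in FR1, 47.5 in FR2 and 48.1 in FR3. Every left pool was above every right pool. The right level of Esr1 was lower by a log2 change of -0.29 ± 0.07 (edgeR, p 0.000439, adjusted p 0.127; DESeq2, adjusted p 0.0171), and by -0.29 ± 0.08 without both ML1 and FL1 (adjusted p 0.555).

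Pgr went the other way, with 1.07 ± 0.573 CPM in left pools (0.397 to 1.85) and 1.86 ± 0.459 in right pools (1.12 to 2.40), which overlapped. The log2 change of Pgr was 0.95 ± 0.31 (edgeR, p 0.00791, adjusted p 0.461), and 0.50 ± 0.30 without both ML1 and FL1 (p 0.116, adjusted p 0.943). Satellite glia markers in the neurons summed to a median of 102 CPM in left pools (90.7 to 115) and 138 in right pools (88.9 to 172), and their part in the Pgr values was not tested. Esr2 changed by 0.10 ± 0.15, Nr3c1 by -0.00 ± 0.06 and Nr3c2 by 0.04 ± 0.05, with adjusted p of 0.933, 1.00 and 0.933. The sign for Nr3c1 turned under other scalings, and its size stayed below its error.

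The makeup of the neurons differed between pools, so each receptor's level was also computed at a fixed makeup, weighting every subcluster by its share of all neuronal UMIs. Esr1 then stood at 56.1 ± 1.45 CPM in left pools (54.6 to 58.4) and 43.6 ± 1.55 in right pools (41.4 to 46.0). The spread over pools narrowed and the sides did not overlap. The exact 2-sided permutation test within labelled sex gave Esr1 p = 0.005, the smallest its 400 relabellings allow, at fixed makeup and also as measured. At fixed makeup Esr1 was the 1 of 5 receptors with an exact p under 0.05. The exact test was run on the 5 receptors only, so the share of all genes with such a p is not known. Pgr at fixed makeup was 1.252 and 1.68 CPM (exact p = 0.29), whereas as measured its exact p was 0.04. Esr2, Nr3c1 and Nr3c2 gave exact p of 0.895, 0.935 and 0.945. These p-values are not adjusted over the 5 receptors.

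In nodose-like neurons, Esr1 fell on the right: 64.5 ± 2.27 CPM in left pools (60.7 to 67.6) against 51.4 ± 3.33 in right pools (47.8 to 56.5), with no overlap. The log2 change was -0.33 ± 0.06 (edgeR, adjusted p 0.00523), and 0.59% of 13570 genes were called. DESeq2 gave an adjusted p of 0.000127 with 1.01% called. The call for Esr1 held without each pool in turn (adjusted p 0.00557 to 0.0200). It did not hold without both ML1 and FL1, where the change was -0.32 with an adjusted p of 0.0620. Nor did it hold with coarser clustering at resolution 0.5 (-0.27, adjusted p 0.171), where only 11662 nuclei were named nodose-like, against 19701 at resolution 1. In the fit on all 19701 nuclei, Pgr changed by 1.01 (adjusted p 0.251) and no receptor other than Esr1 was called.

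The side difference in Esr1 was carried unequally by the subclusters. Esr1 could be tested in 8 of the 14 subclusters with at least 20 nuclei in every pool, and it fell on the right in 3 of them. In Tafa4/Crhr2 neurons it was 251 ± 19.1 CPM in left pools (226 to 277) and 189 ± 9.77 in right pools (175 to 201), a log2 change of -0.42 ± 0.08 (edgeR, adjusted p 0.00207; 0.701% of 7272 genes called). In Itgae/Gpr65 neurons, named for an integrin subunit and a proton-sensing receptor, it was 72.9 ± 12.998 CPM (53.4 to 90.3) against 36.6 ± 6.22 (28.0 to 42.8), a change of -1.02 ± 0.16 (adjusted p 3.03e-05; 1.45% of 7302 genes). In Cysltr2/Cyp26b1 neurons, which carry a leukotriene receptor, it was 37.5 ± 6.36 CPM (28.6 to 47.7) against 22.2 ± 2.96 (17.1 to 25.2), a change of -0.73 ± 0.15 (adjusted p 0.0400; 0.0539% of 9281 genes). The sides did not overlap in these 3 of the 8 subclusters.

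Esr1 in the first 2 of these subclusters stayed called without each pool in turn (adjusted p 0.00123 to 0.0224 and 1.36e-05 to 0.000541) and without both ML1 and FL1 (0.0159 and 0.00456). In Cysltr2/Cyp26b1 neurons the call held in 3 of 12 such fits (0.0230 to 0.132) and not with DESeq2 (0.0593), and without both ML1 and FL1 the adjusted p was 0.0452. The other tested subclusters gave Esr1 changes of 0.03 ± 0.17 in Xylt1/Sctr (0.014% of genes called), -0.23 ± 0.11 in Itm2a/S1pr3 (p 0.0459, adjusted p 0.847; 0.128%), -0.25 ± 0.20 in Pde1a/Fhip1a (0.166%), 0.35 ± 0.28 in Gdpd4/Shisa6 (0.0%) and -0.08 ± 0.25 in the largest subcluster, led by Fhip1a (0.0874%). A test of whether the Esr1 side change differed among the 8 subclusters gave F = 5.33 on 7 degrees of freedom (edgeR with pools as blocks, adjusted p 0.00611; 0.749% of 8946 genes called). The same test gave adjusted p of 0.999 for Nr3c1 and 0.781 for Nr3c2.

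The share of nuclei with an Esr1 UMI moved with the level. Thinned to 1500 UMIs, it was 30.8 ± 3.20% of Tafa4/Crhr2 nuclei in left pools and 22.9 ± 1.18% in right pools, 9.92 ± 2.21% and 4.86 ± 2.53% in Itgae/Gpr65, and 4.86 ± 1.78% and 3.06 ± 1.254% in Cysltr2/Cyp26b1. In Xylt1/Sctr neurons it was 9.53 ± 1.41% and 8.80 ± 1.54%. Nuclei with fewer than 1500 UMIs were left out, which kept 779 of 917 left and 1169 of 1470 right nuclei in Tafa4/Crhr2. In Itgae/Gpr65 750 of 905 and 939 of 1147 were kept, and in Cysltr2/Cyp26b1 973 of 995 and 851 of 873. In Xylt1/Sctr 420 of 480 and 933 of 1130 were kept. Pool medians of depth in neurons ran from 2394 to 4069.5 UMIs on the left and from 2112.5 to 3623.5 on the right. In Tafa4/Crhr2 neurons, neuron markers summed to 8516 to 9484 CPM in left pools and 8313 to 9382 in right pools. In Itgae/Gpr65 neurons they summed to 8883 to 9669 and 8293 to 8969. Satellite glia markers in Tafa4/Crhr2 neurons had a median of 58.1 CPM among left pools and 90.3 among right pools, and in Itgae/Gpr65 neurons 72.4 and 79.0. Myelinating Schwann cell markers had medians of 340 on the left and 387 on the right in Tafa4/Crhr2 neurons. In Itgae/Gpr65 neurons they had medians of 361 (304 to 468) and 468 (327 to 578), with overlapping pools. The part of depth and marker levels in the Esr1 difference was not tested.

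**Figure D3:**
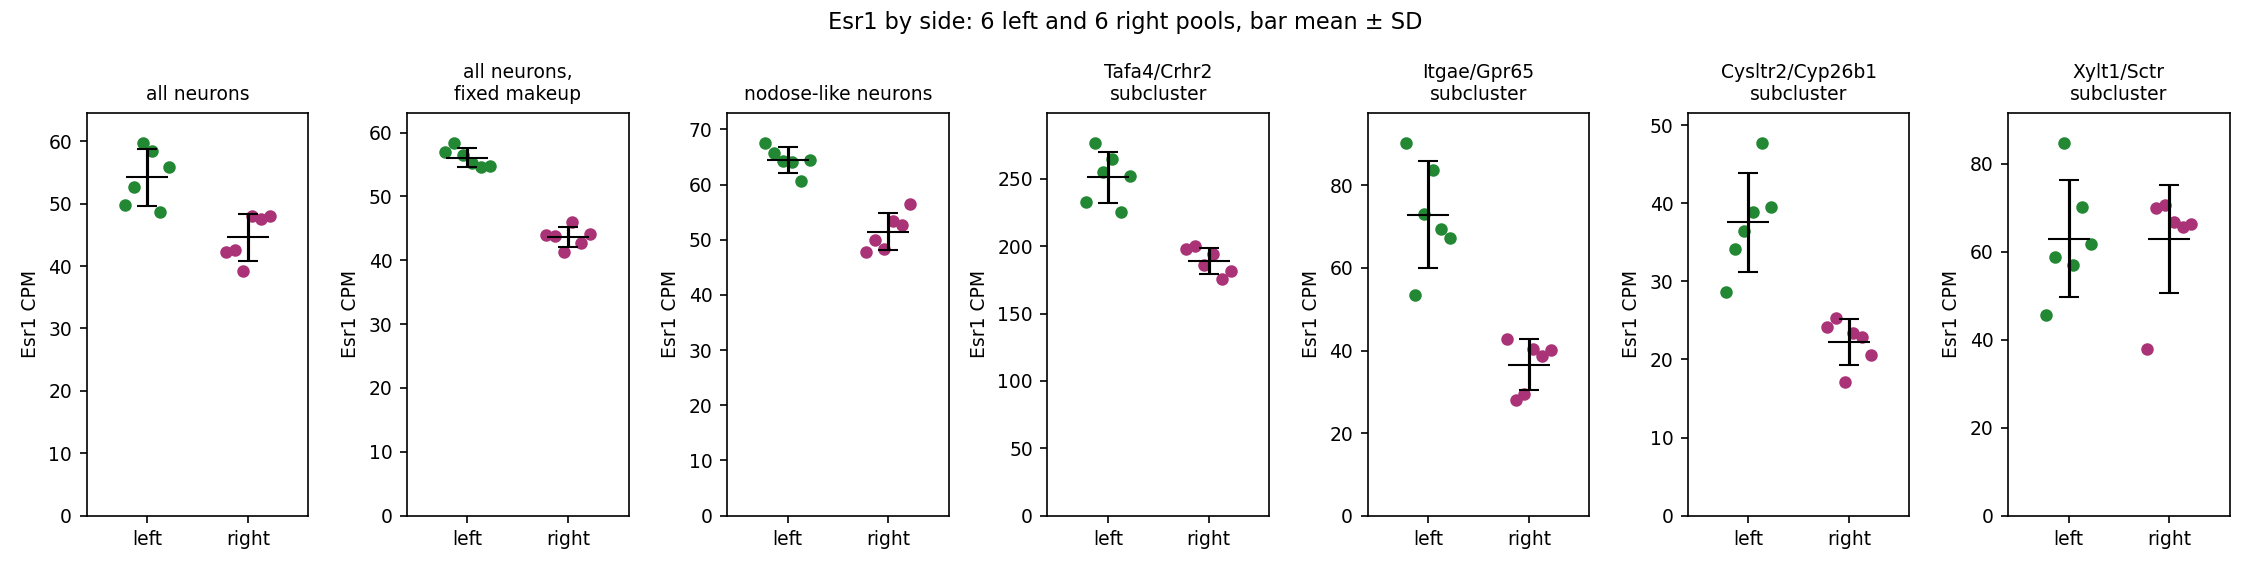
Esr1 level (y axes, CPM) in the 6 left and 6 right pools, for all neurons as measured and at fixed makeup, nodose-like neurons and 4 subclusters; points are pools and bars the mean and SD. The sides do not overlap in Tafa4/Crhr2, Itgae/Gpr65 or Cysltr2/Cyp26b1 neurons and overlap in Xylt1/Sctr neurons.

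**Figure D4:**
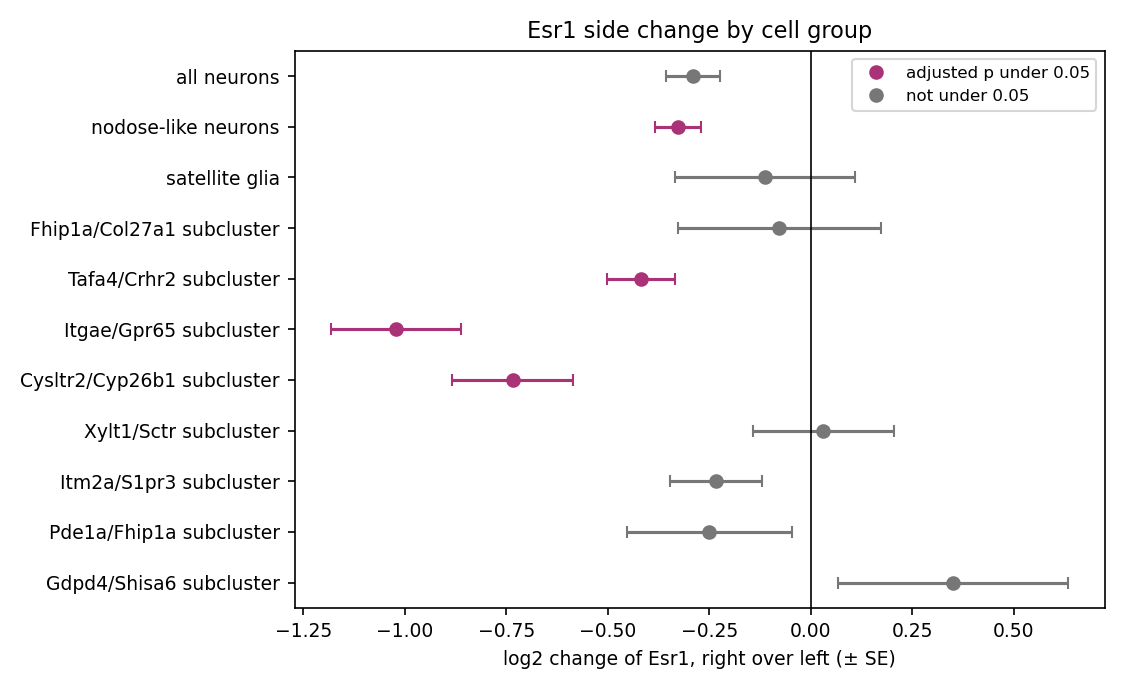
Log2 change of Esr1, right over left, with its SE (x axis) in each cell group where Esr1 was tested (y axis); coloured points have an adjusted p under 0.05. Itgae/Gpr65 neurons show the change farthest from 0 (-1.02), and Xylt1/Sctr neurons lie at 0.03.

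Between labelled sexes, no receptor was called in neurons. In edgeR 0 of 13899 genes were called (0.0%), with 2575 at an unadjusted p under 0.05 and none of the 5 receptors among them. DESeq2 called 369 genes and no receptor. The edgeR count rested on single pools: it was 525 without MR1, 247 without ML3, 154 without FR3, 13 without ML1, 12 without FL1, 1 without FR2 and 0 without each of the others. Without both ML1 and FL1 it was 26 of 13980 (0.186%), again with no receptor at an unadjusted p under 0.05, and Nr3c2 changed by -0.05 ± 0.05. Male-labelled pools had 47.7 ± 7.77 CPM of Esr1, and female-labelled ones 51.1 ± 4.77. For Nr3c2 the values were 141 ± 6.48 and 133 ± 10.7 (log2 change -0.11 ± 0.05, adjusted p 0.313). Pools overlapped for both. In nodose-like neurons 0.833% of 13570 genes were called by labelled sex (113 genes, and 147 of 13574 without both ML1 and FL1), and no receptor in either fit. ML1 and FL1 carry a sex label that their Y-linked genes go against, so these comparisons mix the sexes as labelled.

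The interaction of side with labelled sex was not called for any receptor in neurons (edgeR 0 of 13899 genes, 0.0%, with 601 at p under 0.05 and no receptor among them; DESeq2 0 genes). The smallest p was that of Nr3c2, 0.21 ± 0.10 (p 0.0549, adjusted p 1.00). In nodose-like neurons Nr3c2 gave 0.25 ± 0.10 (p 0.0230) and Esr1 0.22 ± 0.10 (p 0.0422), with adjusted p of 0.904 and 0.907. Without both ML1 and FL1 no gene was called in either group. Nr3c2 was then 0.14 ± 0.10 and Esr1 0.33 ± 0.14 in neurons (p 0.190 and 0.0286, adjusted p 0.977 for both), and 0.21 ± 0.10 and 0.23 ± 0.12 in nodose-like neurons (p 0.0602 and 0.0814, adjusted p 0.980 for both).

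Outside nodose-like neurons, no receptor was called by side or labelled sex in jugular-like neurons, satellite glia, Schwann cells or vascular nuclei. In these classes edgeR called no gene by side (0.0% each), with 312 to 441 at an unadjusted p under 0.05, and 1 gene by labelled sex in jugular-like neurons (0.0138%). DESeq2 called 0 to 9 genes by side in these classes and no receptor. Esr1 in satellite glia changed by -0.11 ± 0.22 between sides and Esr2 in Schwann cells by -0.25 ± 0.24. Nr3c2 in Schwann cells had an interaction of 0.80 ± 0.24 (p 0.00169, adjusted p 0.348; 0.0431% of 6955 genes called). Its left female-labelled pools stood at 140 CPM in FL1, 123 in FL2 and 93.0 in FL3, and its left male-labelled pools at 216 in ML1, 164 in ML2 and 188 in ML3. Without ML1 and FL1, which go against their sex label, the interaction was 0.80 ± 0.31 (p 0.0113, adjusted p 0.569). The interaction was not called for any receptor in satellite glia (0.0881% of genes called) or vascular nuclei (0.0194%). Within neuron subclusters, Nr3c1 and Nr3c2 were tested in all 14 with enough nuclei, and neither was called by side (0.0% to 1.45% of genes called). By labelled sex no receptor was called in any subcluster, where the share of genes called ran from 0.0% to 0.652% and was 0.0548% in Itgae/Gpr65 neurons. Esr2 could be tested in Nxph1/Rnf220 neurons alone, with 0.17 ± 0.30 (adjusted p 1.00).

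The wider steroid pathway was followed with 45 genes in 6 groups: membrane and related receptors, chaperones, coregulators, steroid-metabolising enzymes, and genes known to answer to corticosteroids or to estrogen. In neurons 37 rows of it could be tested. By side none was called (0.13% of all genes were). Of the 37, 3 had an unadjusted p under 0.05, as 7.27% of all genes did. The median log2 change of the 37 was -0.03 against -0.01 over all genes. Among the 4 smallest p by side were those of Esrrg, an estrogen-related receptor (log2 change right against left 0.18 ± 0.08, adjusted p 0.675), Paqr7, a membrane progestin receptor (-0.17), and Hsd11b1, which regenerates active glucocorticoid (0.34).

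By labelled sex none of the 37 was called in neurons either, and 13 had an unadjusted p under 0.05, as 18.5% of all genes did. All 6 chaperones were among these, with a median change of 0.26 against 0.00 over all genes. They did not all go the same way. Fkbp5 was lower in female-labelled pools, at 37.4 ± 3.14 CPM against 42.9 ± 5.00 in male-labelled ones, and the other chaperones were higher there. Without both ML1 and FL1, 13 of the 37 and 5 of the 6 chaperones had an unadjusted p under 0.05 (15.7% of all genes). The chaperone median was then 0.29 against 0.01. Depth in neurons also differed by labelled sex. Pool medians ran from 2112.5 (MR3) to 3329 UMIs (ML1) in male-labelled pools and from 2846 (FR2) to 4069.5 (FL1) in female-labelled ones. The part of depth in the chaperone values was not tested. Hsp90aa1, an Hsp90 isoform, averaged 215 ± 46.6 CPM over male-labelled pools and 319 ± 52.0 over female-labelled ones (0.54 ± 0.13, adjusted p 0.0793). The next were Ptges3, the Hsp90 cochaperone p23 (0.27), Zbtb16 (-0.56) and Hsp90ab1 (0.36). In nodose-like neurons Hsp90aa1 was the 1 gene of the list called (0.53 ± 0.12, adjusted p 0.0400). Its adjusted p was 0.0556 without both ML1 and FL1, where Zbtb16 was called (-0.72 ± 0.16, adjusted p 0.0411), and ran from 0.00343 to 0.135 without each pool in turn. Fkbp5 (-0.37), Ep300 (0.29), Per1 (-0.81) and Srd5a1 (0.62) had the smallest p for the interaction in neurons, and none was called.

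Across cell classes the list moved more, as most genes did. In satellite glia 16 of 33 rows were called higher and 8 lower than in neurons, where 33.4% of all genes were called higher and 39.2% lower. In Schwann cells the counts were 16 and 11 (39.7% and 39.3% of all genes), and in vascular nuclei 14 and 13 (35.3% and 35.1%). The total called was close to the 72.6%, 79.0% and 70.4% of all genes in satellite glia and Schwann cells and above it in vascular nuclei. Of the corticosteroid-responsive genes, those called higher than in neurons were 4 of 7 in satellite glia, 5 in Schwann cells and 6 in vascular nuclei, with 1 lower in each. Their median log2 change was 0.61, 1.47 and 1.67, against -0.04, 0.01 and 0.00 over all genes. Zbtb16, a transcription factor induced by glucocorticoids, was higher by 1.47 ± 0.13, 2.73 ± 0.13 and 3.67 ± 0.13, and Klf9 by 0.61 ± 0.07, 1.47 ± 0.08 and 1.62 ± 0.09. The clock gene Per1 was higher by 1.28 ± 0.12, 2.17 ± 0.14 and 1.67 ± 0.19. Sgk1, a kinase that both corticosteroid receptors induce, was the gene that was lower, by -1.24 ± 0.06, -1.65 ± 0.07 and -1.89 ± 0.09. Between jugular-like and nodose-like neurons 9 of 35 rows were called higher and 6 lower (37.0% of all genes called), with Sgk1 at -2.39 ± 0.09 and Esrrg at -1.86 ± 0.17.

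Receptors were also counted together in single neurons. At full depth, nuclei with an Esr1 UMI held an Nr3c1 UMI more often than those without in 12 of 12 pools (29.96 ± 4.23% against 23.5 ± 3.90%). Thinned to 1500 UMIs, the shares were 12.02 ± 3.51% and 11.4 ± 1.05%, with 6 of 12 pools higher. For Esr1 with Nr3c2 the thinned shares were 17.7 ± 3.57% and 19.0 ± 1.44%. Nr3c2 was found in 20.9 ± 4.39% of nuclei with Nr3c1 and 18.7 ± 1.29% of those without, higher in 8 of 12 pools. These shares overlap within 1 SD.

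Technical spread was measured over sublibraries, which hold the same pools. Over the 8 sublibraries, neuronal Esr1 was 49.4 ± 2.59 CPM (45.5 to 54.2), Nr3c1 82.4 ± 2.38 and Nr3c2 136 ± 4.77. Esr2 was 5.16 ± 1.03 CPM on 47 to 71 UMIs per sublibrary, and Pgr 1.44 ± 0.245 on 14 to 22 UMIs.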

How the data were processed

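Single-nucleus RNA of left and right nodose ganglia was fixed and barcoded by the authors with split-pool kits, per the labels' protocols. The authors deposited raw UMI counts per nucleus and gene, a gene list and a table giving each nucleus's pool. The submitters' processing notes name the build mRatBN7.2, R 4.3.2 and Seurat 4.1.3, and neither aligner nor annotation release is given in the sources used here. Sex, side and number were read from pool names.

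Requiring 300 genes per nucleus and a mitochondrial share of UMIs no higher than 5% removed 1 nucleus. The doublet caller marked 2 nuclei (0.00544%) and so hardly worked, and an alternative left out the 5% of nuclei with the highest doublet scores. Nuclei were clustered (scanpy 1.11.5, Leiden resolution 1) without the receptors and pathway genes and named from marker lists. Neuron markers counted as raised at 1.5-fold, and those of other classes and of jugular-like neurons at 2-fold with a minimum share of nuclei. Each name needed 3 markers, and a class other than neurons also 1 marker among the leading genes. Nodose-like neurons had 3 nodose markers at 2-fold over jugular-like ones and fewer than 2 raised jugular markers. Neurons meeting neither rule stayed other neurons. The naming rules were revised after clusters and pooled receptor levels were seen, before any side or sex test. Prrxl1, Drp2, Flt1, Cldn5 and Myh1 had no row, nor did Dusp1 and Tsc22d3 of the pathway list, and Ep300 had 2 rows.

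UMIs were summed per pool and cell group with at least 20 nuclei in every pool for tests, and genes were tested with edgeR 4.0.16 (R 4.3.3; TMM scaling, low-count filter, quasi-likelihood F test, Benjamini-Hochberg over all genes, threshold 0.05), also tested on simulated data. DESeq2 1.42.0 was an alternative, with resolutions 0.5 and 2, no scaling, no filter and pools left out. Named were all 5 receptors and, of the pathway list, the called genes or, where fewer than 4 were called, the 4 of smallest p; 1 gene of the list enters the counts and is not reported here by name. Values of pathway genes between cell classes were chosen after being seen. Receptors and lists were chosen with earlier results of these data known, including the side differences of Esr1 and Pgr, which are therefore not independent support. Pools share animals across sides, so p-values measure the spread between pools.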

Additional observations from a re-analysis of the deposited data

Results flagged for a closer look

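The side change of Esr1 differed among the 8 neuron subclusters tested (edgeR, adjusted p 0.00611). In groups of 6 pools of 1 side or 1 labelled sex, and of 8 sublibraries, 16 of 124 groups held a value set apart from the rest by a gap above Dixon's critical value, where chance alone gives about 1 in 20. Of these, 7 concern Pgr at 1 or 2 UMIs: the highest jugular-like value, 5.63 CPM in FR1, stood apart among right and among female-labelled pools. Pgr in Schwann cells stood apart at 4.69 CPM in ML2 among left pools and at 1.84 in FR2 among female-labelled pools. In vascular nuclei Pgr did so at 20.03 CPM in MR3 among right and male-labelled pools and at 2.73 in FR2 among female-labelled pools. Esr1 in satellite glia was highest in FL3 among left pools, at 45.7 CPM. Esr2 in neurons was lowest in FR1 among right pools, at 2.99 CPM. Nr3c1 in jugular-like neurons was highest in MR1 among right pools, at 126 CPM, and lowest in FL1 among female-labelled pools, at 63.2. Nr3c1 in neurons was lowest in 1 sublibrary, at 76.9 CPM. Nr3c2 in neurons was lowest in FL1 among female-labelled pools, at 112 CPM, and FL1 goes against its sex label. Nr3c2 in jugular-like neurons was lowest in MR3 among male-labelled pools, at 115 CPM. Nr3c2 in satellite glia was highest in ML1 among male-labelled pools, at 211 CPM, another pool that goes against its label. Nr3c2 in vascular nuclei was highest in FL3 among left pools, at 646 CPM.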

How the results depend on the processing

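The count of receptors called by side in neurons, 0, became 1 with DESeq2 and in nodose-like neurons only. It was also 1 at fixed makeup, by the exact permutation test, which was run on the receptors only and whose p is not adjusted. As measured, that test gave p of 0.005 for Esr1 and 0.04 for Pgr, and at fixed makeup 0.005 and 0.29. The edgeR count rests on p-values adjusted over all genes, so the 2 counts are not alike. The part of the makeup in the change of count was not tested. The 1 receptor called by side in nodose-like neurons became 0 without ML1 and FL1 and at resolution 0.5. The 1 called in Cysltr2/Cyp26b1 neurons became 0 with DESeq2 and ranged from 0 to 1 without each pool. The other 285 alternatives kept the same count, 0 against 0 included, or a count within 1.5 times. They also hold each receptor's highest subcluster level after thinning, which stayed within 1 SD. Signs turned only for changes that were not called. By side in neurons, Esr2 was -0.023 in nodose-like neurons only, and Nr3c1 was 0.00070 with DESeq2, 0.0098 without scaling, 0.0048 without the filter, 0.0019 without the highest doublet scores, 0.022 at resolution 0.5, 0.017 with the receptors among the clustering genes and 0.059 in nodose-like neurons only. Without each pool Nr3c1 ran from -0.038 to 0.029. Nr3c2 by side was -0.0024 without ML1 and FL1 and -0.0036 to 0.063 without each pool. By labelled sex, Pgr ran from -0.21 to 0.064 without each pool, and Nr3c1 from -0.039 to 0.020, with 0.0028 without scaling and 0.049 without ML1 and FL1. In nodose-like neurons by side, Esr2 was 0.0070 without the subcluster with an endothelial marker, 0.065 at resolution 0.5, 0.11 at resolution 2, 0.012 with the receptors among the clustering genes and -0.14 to 0.086 without each pool, and Nr3c2 was -0.013 without ML1 and FL1 and -0.0022 to 0.065 without each pool. Nr3c2 in Schwann cells against neurons was -0.092 without the filter. The cause of these shifts was not tested.

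Deviations of same-numbered pools from their group means correlated at -0.12 to 0.38, the highest for ML2 with MR2. The groups are those of labelled sex and side, and the left ones hold ML1 and FL1. The check therefore cannot tell whether pool numbers pair the samples. With the replicate block, Nr3c1 by side in neurons was 0.0015, 0 receptors were called in neurons (Esr1 adjusted p 0.210) and Esr1 kept its call in nodose-like neurons (0.0112). DESeq2 gave no adjusted p for Esr2 or Pgr by side in neurons, nor for Esr1 in Itgae/Gpr65 neurons (p 7.37e-07). The depth of Pgr, 138 UMIs in neurons, and of Esr2, 489, limits their comparisons. Settings of the nodose-like and subcluster fits, interaction fits of other classes and the pathway list without ML1 and FL1, and the test among subclusters were chosen after seeing the data.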
